A study of Mus musculus with 12 samples.

Results

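Matrix metalloproteinases (MMPs) and their tissue inhibitors (TIMPs) were followed in cultured macrophages and in fibroblasts exposed to macrophage medium. The genes were taken by symbol, as 7 proteinases (Mmp2, Mmp3, Mmp9, Mmp12, Mmp13, Mmp14 and Mmp19) and 3 inhibitors (Timp1, Timp2 and Timp3). All 10 were present among the 32544 genes of the count table, and 9 passed the filter on low counts. Mmp3 did not pass, with at most 2 counts in any library.

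Bone marrow-derived macrophages (BMDM) came from mice on a C57Bl6/J background. WT mice carried LysMCre alone, and PHD2cko mice carried LysMCre with a conditional allele of PHD2, the prolyl hydroxylase encoded by Egln1 that marks hypoxia-inducible factors for degradation. LysMCre acts in myeloid cells and therefore acted in both labelled genotypes. BMDM were differentiated with medium conditioned by L929 cells, a mouse fibroblast line, and their RNA was taken 24 h after seeding. NIH/3T3 cells, an established line of mouse embryonic fibroblasts, were starved of serum and then kept for 72 h in medium conditioned by WT or PHD2cko BMDM, which also held L929-conditioned medium. The oxygen condition of the sequenced cultures is not given in the sources used here. Each of the 4 groups held 3 libraries, and the sources do not state that these came from separate animals or cultures, so p-values measure only the spread between these libraries, which may be technical.

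MMPs are zinc-dependent endopeptidases that cleave collagens, elastin, basement membrane and many non-matrix proteins. They are made as inactive zymogens, activated by other proteinases, and held in check by TIMPs, which bind the active site. In the atherosclerotic plaque, macrophages and fibroblasts are both known sources of MMPs, and the balance of proteinase and inhibitor bears on the fibrous cap. Transcript levels do not show how much of an enzyme is secreted or active. The study measured MMP activity in lysed BMDM with a fluorogenic substrate and reports it as unchanged in PHD2cko.

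Library totals ran from 15516465 to 25199770 counts, so that 3 counts, the floor used here, corresponded to at most 0.205 CPM (counts scaled to a total of 1e+06, over the effective library size). Egln1 was at 55.8, 54.7 and 55.6 CPM in the WT BMDM libraries and at 68.8, 68.3 and 71.6 CPM in those labelled PHD2cko. The transcript of the targeted gene was thus higher in the libraries labelled PHD2cko (log2 fold change 0.33, adjusted p = 0.00203, edgeR), which goes against the label as far as a total over the gene can show. The study itself reports a check of the PHD2 knockdown in BMDM mRNA and a raised hypoxia response in PHD2cko BMDM. Counts over the whole gene do not resolve the deleted part, and groups are named below by their labels only. In BMDM 0 of 23 macrophage markers were called between labels by edgeR, DESeq2 or limma-voom, and 0 had an unadjusted p under 0.05. Over all genes 961 were called and 2721 had an unadjusted p under 0.05 (edgeR). The spread in these fits includes the 3T3 libraries, among which the markers varied, so these counts do not show that the markers were unchanged. The sum of the 23 markers was 51780 to 53690 CPM in WT and 45580 to 48290 CPM in libraries labelled PHD2cko. One of the 3T3 libraries, WT medium replicate 1, stood apart from its group, since its counts gave a reduced chi-square of 24.8 and 26.9 in comparison to replicates 2 and 3, whereas those 2 gave 2.35 between them.

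Macrophages and 3T3 cells carried different sets of these transcripts. Comparison of WT BMDM with 3T3 cells in WT medium called 8 of 9 tested genes, 2 higher and 6 lower in BMDM, where 85.3% of all tested genes were called (40.4% higher and 44.9% lower in BMDM). A share of this size is close to the background between 2 cell types, and the comparison is given for the identity of the genes. Mmp12 and Mmp13 were the BMDM genes, whereas Mmp2, Mmp9, Mmp14, Timp1, Timp2 and Timp3 were higher in 3T3 cells.

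**Figure D1:**
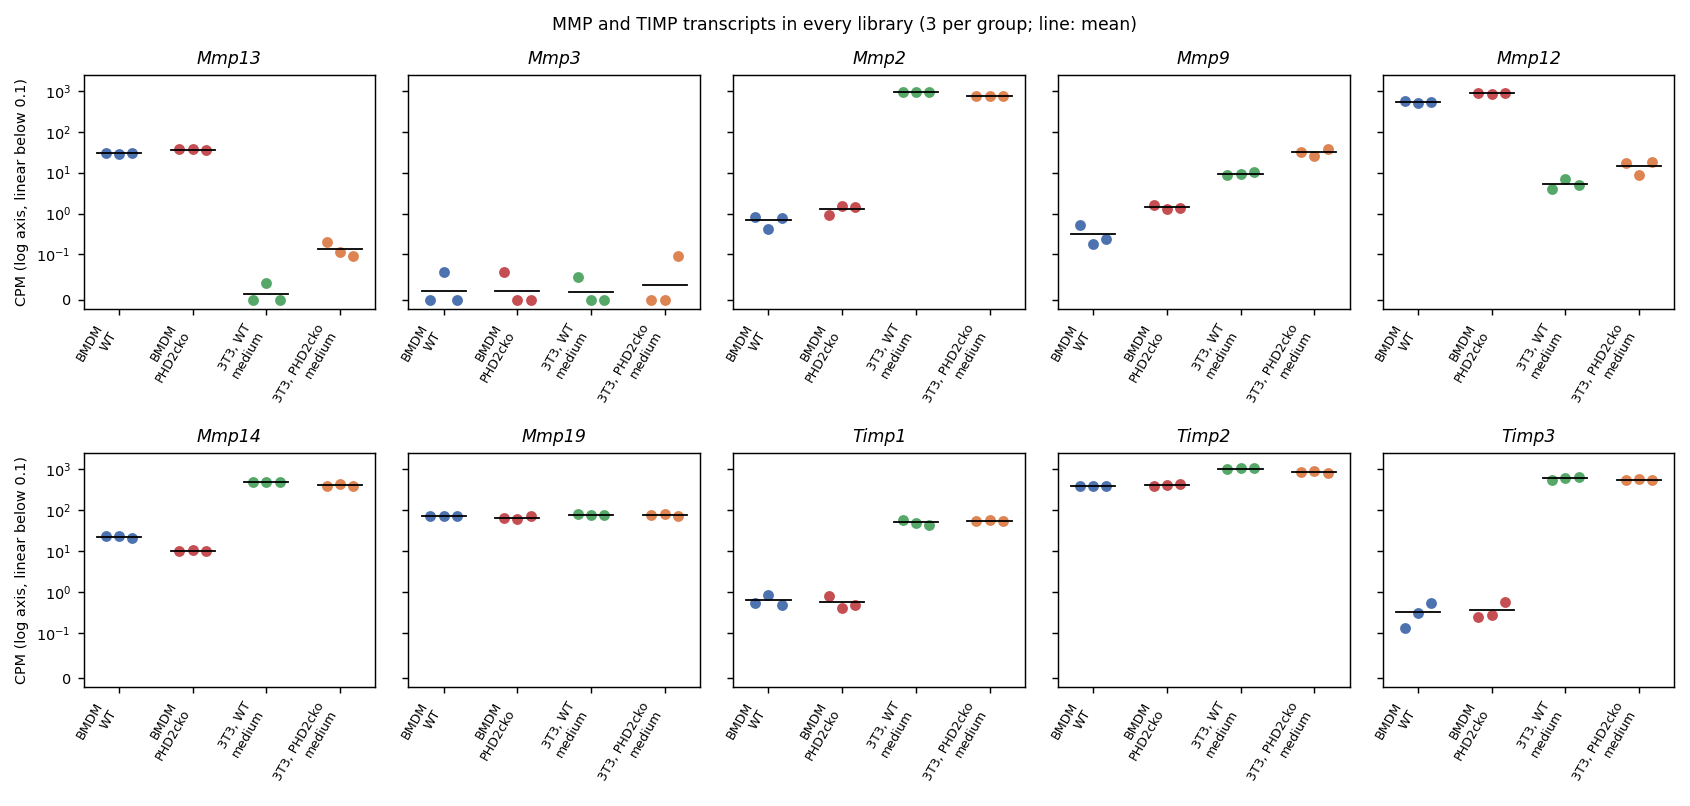
CPM of the 10 genes in each of the 12 libraries, on a log axis that is linear below 0.1; points are libraries and lines are group means. Mmp12 and Mmp13 are high in BMDM, Mmp2, Mmp9, Timp1 and Timp3 are low there, Mmp19 lies between 59.8 and 79.2 CPM in all libraries, and Mmp3 stays at 0 to 2 counts throughout.

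Levels of different genes were set side by side only as CPM per kilobase of merged exon. In WT BMDM Timp2 came first (98.3 ± 1.51, SD, n = 3), followed by Mmp12 (73.6 ± 3.73), Mmp19 (19.99 ± 0.288), Mmp13 (11.1 ± 0.451), Mmp14 (3.73 ± 0.288) and Timp1 (0.696 ± 0.225). These neighbours did not overlap, whereas Mmp2, Mmp9, Timp3 and Mmp3, at the end of the order, overlapped each with the next. In BMDM labelled PHD2cko Mmp12 came first (120.8 ± 4.46 CPM per kilobase) and Timp2 second (103 ± 5.14), without overlap. With the median length of coding transcripts in place of merged exons, Mmp12 led in both BMDM groups.

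In 3T3 cells in WT medium the order per kilobase began with Mmp2 (279 ± 2.45, SD, n = 3) and Timp2 (264 ± 4.78), followed by Mmp14 (80.2 ± 1.29), Timp3 (72.8 ± 6.21), Timp1 (56.5 ± 8.37), Mmp19 (21.8 ± 0.714), Mmp9 (2.66 ± 0.244) and Mmp12 (0.735 ± 0.201). No neighbours in this part of the order overlapped, and Mmp3 and Mmp13 shared the bottom with overlapping values. In PHD2cko medium the order of Timp3 and Mmp14 was inverted, but these 2 overlapped, as did Mmp2 and Timp2. Mmp14 and Timp3 also changed places in WT medium when the length of coding transcripts was used.

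**Figure D2:**
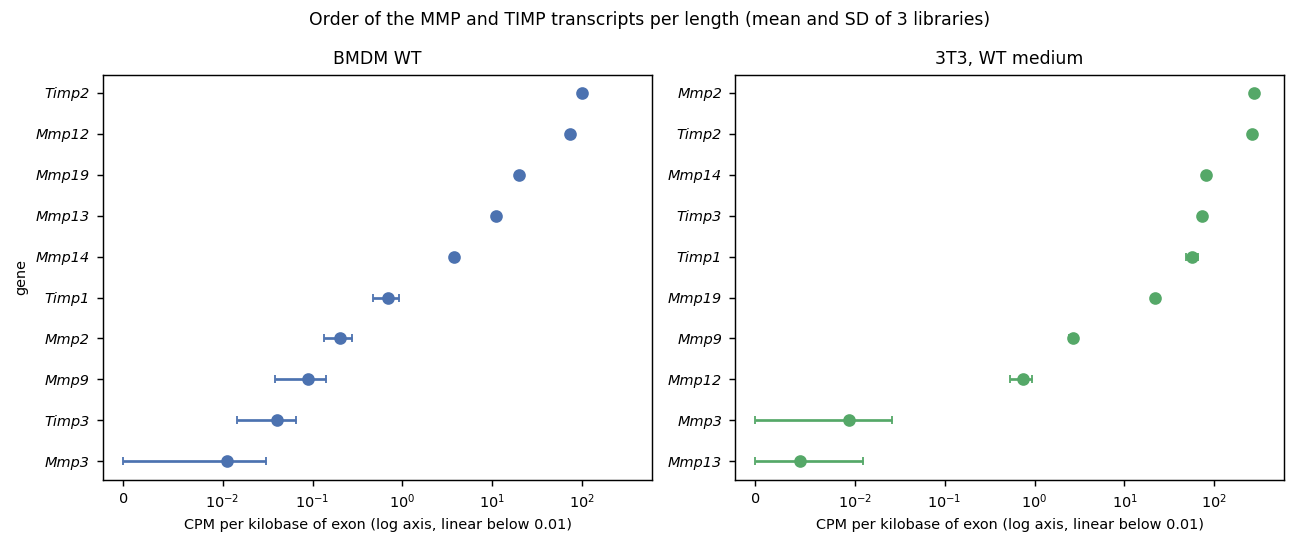
Mean CPM per kilobase of merged exon with SD (n = 3; bars stop at 0) in WT BMDM and in 3T3 cells in WT medium, on a log axis that is linear below 0.01. Timp2 and Mmp12 lead in BMDM, and Mmp2 and Timp2 in 3T3 cells.

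In macrophages, the PHD2cko label went with higher Mmp9, Mmp12, Mmp13 and trace Mmp2, and with 0.455-fold of the WT level of Mmp14, whereas no TIMP was called. Of the 9 tested genes 5 were called, 4 higher and 1 lower, where 6.73% of all genes were called (3.38% higher and 3.35% lower). The count of 5 fell to 3 with limma-voom, to 3 without PHD2cko replicate 1 or 3, to 2 without PHD2cko replicate 2 or WT replicate 1 or 3, and to 1 without WT replicate 2. The 3 libraries of either label did not overlap for 5 of the 9, against 31.9% of all genes. Timp1 and Timp3 passed the filter only through the 3T3 libraries. A fit of the 6 BMDM libraries alone tested the other 7 and called 4. The median log2 fold change of the 9 was 0.19, beside 0.0002 over all genes tested.

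Mmp12, macrophage elastase, was the proteinase with the highest level per kilobase in BMDM (chr9:7344381-7369499, plus strand, GRCm38). It was at 563, 513 and 521 CPM in WT and at 876, 841 and 906 CPM in the libraries labelled PHD2cko. All 3 of the latter lay above all WT libraries, and the log2 fold change was 0.72 (95% interval 0.35 to 1.08, adjusted p = 0.0237, edgeR). The spread of Mmp12 in this fit includes the 3T3 libraries, among which it varied more. In a fit of the 6 BMDM libraries alone the adjusted p was 9.3e-09 (edgeR), whereas leaving out any 1 BMDM library from the fit of all libraries gave adjusted p of 0.0677 to 0.102.

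Mmp13, a collagenase that cleaves fibrillar collagen, lies beside Mmp12 on the same chromosome (chr9:7272514-7283331, plus strand). It was at 29.7, 28.3 and 30.7 CPM in WT BMDM and at 37.1, 37.6 and 35.1 CPM in BMDM labelled PHD2cko. The groups did not overlap, and the log2 fold change was 0.31 (0.15 to 0.46, adjusted p = 0.0193, edgeR). This call was lost in 4 of the 6 fits that left out a BMDM library, those without WT replicate 1 or 2 or PHD2cko replicate 1 or 2, with adjusted p of 0.0775 to 0.0984.

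Mmp3, stromelysin-1, belongs to the same group of genes on chromosome 9 (chr9:7445822-7455975, plus strand) and was not detectable above the floor in any group. It had 0, 1 and 0 counts in WT BMDM, 1, 0 and 0 in BMDM labelled PHD2cko, 1, 0 and 0 in 3T3 cells in WT medium, and 0, 0 and 2 in PHD2cko medium. No fold change was computed for it.

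The sequences before the starts of these 3 neighbours are shown because each gene holds the AP-1 motif TGAGTCA, on one strand or the other, at a like distance from a RefSeq start, although Mmp3 was not detectable above the floor. RefSeq starts on GRCm38.p6 were found for 7 of the 10 genes, and the 100 bases before each start are printed 5′ to 3′ on the plus strand with the motif in capitals. The stretch of Mmp12 belongs to the second of its RefSeq starts and lies within the gene, outside the exons of the annotation used here. The 250 bases before the first Mmp12 start did not hold the motif. The AP-1 motif occurred in the 250 bases before 4.46% of 32851 RefSeq starts.
Mmp13, chr9:7272414-7272513: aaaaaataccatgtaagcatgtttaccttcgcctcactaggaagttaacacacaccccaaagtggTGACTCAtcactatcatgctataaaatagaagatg
Mmp12, chr9:7347274-7347373: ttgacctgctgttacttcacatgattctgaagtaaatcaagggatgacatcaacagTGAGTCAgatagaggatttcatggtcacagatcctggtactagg
Mmp3, chr9:7445722-7445821: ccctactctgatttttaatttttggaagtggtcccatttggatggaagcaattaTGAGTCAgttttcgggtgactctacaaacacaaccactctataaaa

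The motif began 35 bases before the start of Mmp13, 44 before the second start of Mmp12 and 46 before that of Mmp3. A match of letters is a description and not evidence of binding. AP-1 is a dimer of Fos, Jun and related proteins and is a textbook regulator of MMP genes together with ETS factors. Of 15 AP-1 and ETS genes, 4 were higher in BMDM labelled PHD2cko and 0 lower (edgeR and DESeq2; 5 and 0 with limma-voom), and 3 were lower at an unadjusted p under 0.05 (edgeR). Over all genes 3.38% were called higher and 3.35% lower. The list had a median log2 fold change of 0.08.

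Fos was at 11.5, 11.9 and 13.3 CPM in WT BMDM and at 20.3, 19.3 and 18.4 CPM in BMDM labelled PHD2cko (log2 fold change 0.65, adjusted p = 0.00285, edgeR). Ets1 had 12.3, 12.8 and 13.6 CPM against 24.2, 24.5 and 23.2 CPM (0.89, adjusted p = 5.8e-06, edgeR). The ETS factor Etv5 had 7.27, 7.20 and 7.12 CPM against 15.6, 12.98 and 10.2 CPM (0.84, adjusted p = 0.00252, edgeR). Jun changed less, by a log2 fold change of 0.20 (adjusted p = 0.0241, edgeR). For these 4 genes the groups did not overlap.

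Mmp14, the membrane-type proteinase MT1-MMP that activates pro-MMP2 at the cell surface, fell in BMDM labelled PHD2cko (chr14:54431612-54445364, plus strand). It was at 22.7, 23.7 and 20.3 CPM in WT and at 10.1, 10.5 and 9.76 CPM in libraries labelled PHD2cko. The log2 fold change was -1.14 (-1.29 to -0.98, adjusted p = 1.2e-06, edgeR), and the call remained in each of the 6 fits without 1 BMDM library, with fold changes of -1.20 to -1.09.

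The stretch before its RefSeq start is shown because it holds the core of the hypoxia response element, ACGTG, to which hypoxia-inducible factors bind; the match was on the reverse strand (CACGT, in capitals), beginning 48 bases before the start. This core occurred in the 250 bases before 16.6% of all RefSeq starts, and the alternative core GCGTG, also read on both strands, before 28.2%.
Mmp14, chr14:54431498-54431597: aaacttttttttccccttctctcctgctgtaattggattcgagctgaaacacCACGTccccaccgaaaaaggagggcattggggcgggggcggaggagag

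Among the other genes with a RefSeq start, Timp1 held ACGTG 82 bases before its start and GCGTG 206 bases before it. Timp2 and Timp3 held GCGTG 113 and 69 bases before theirs. Mmp3, Mmp12 and Mmp13 held neither core in the 250 bases.

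The gelatinases Mmp2 and Mmp9, which cleave denatured collagen and basement membrane collagen, were rare in macrophages. Mmp9 (chr2:164940780-164955850, plus strand) had 8, 3 and 4 counts in WT BMDM, or 0.519, 0.182 and 0.243 CPM. It had 26, 19 and 26 counts in BMDM labelled PHD2cko, or 1.58, 1.30 and 1.37 CPM. Each library labelled PHD2cko was higher than each WT library, with a log2 fold change of 2.16 (1.22 to 3.11, adjusted p = 0.00941, edgeR) that rests on these few counts. The adjusted p was 0.0516 without WT replicate 2, 0.0512 without WT replicate 3 (both edgeR) and 0.0782 with limma-voom.

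Mmp2 (chr8:92827291-92853420, plus strand) had 13, 7 and 13 counts in WT BMDM and 15, 22 and 27 in BMDM labelled PHD2cko, that is 0.844, 0.424 and 0.791 CPM against 0.911, 1.503 and 1.42 CPM. The log2 fold change was 0.90 (0.37 to 1.42, adjusted p = 0.0449, edgeR). The call held without PHD2cko replicate 1 and was lost without any other BMDM library (adjusted p of 0.0626 to 0.313, edgeR). The adjusted p was 0.0789 with the replicate number as a block, 0.0648 with no filter beyond 1 count and 0.0797 in a fit of the 6 BMDM libraries (all edgeR). With limma-voom it was 0.0996. The 15 fibroblast markers summed to 9.86 to 17.2 CPM in WT and 15.8 to 18.3 CPM in BMDM labelled PHD2cko, with 1 marker at 0 in each group. Their median log2 fold change was 0.34, beside 0.0002 over all genes. Of the 15 markers 0 were called by edgeR (4 at an unadjusted p under 0.05) and by limma-voom, and 1 by DESeq2. In 3T3 cells in WT medium the 15 markers summed to 30860 to 35950 CPM. The part of the fibroblast transcripts in the Mmp2 counts of BMDM was not tested.

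Mmp19, which cleaves basement membrane proteins, and the TIMPs were not called in BMDM. Mmp19 (chr10:128790910-128800824, plus strand) was at 70.1, 71.8 and 70.0 CPM in WT and at 65.3, 59.8 and 70.8 CPM in libraries labelled PHD2cko, with overlap (log2 fold change -0.11, -0.24 to 0.02). Timp2, an inhibitor of MMPs that also takes part in the activation of pro-MMP2 by MT1-MMP, was the highest of the 3 per kilobase (chr11:118301069-118355740, minus strand). It was at 389, 378 and 382 CPM against 386, 398 and 425 CPM (0.07, -0.05 to 0.20). The groups overlapped for both genes.

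Timp1, a secreted inhibitor, and Timp3, which binds to the extracellular matrix, were near the floor in BMDM. Timp1 (chrX:20870166-20874735, plus strand) had 8, 14 and 8 counts in WT and 13, 6 and 9 in libraries labelled PHD2cko. Timp3 (chr10:86300372-86349506, plus strand) had 2, 5 and 9 counts against 4, 4 and 11. With so few counts the intervals were wide, -1.09 to 0.79 for Timp1 and -0.92 to 1.30 for Timp3 on the log2 scale, and differences within these bounds could not be resolved.

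Exons of Timp3 share 1733 bases with Syn3, and those of Mmp19 share 789 bases with Tmem198b, both on the opposite strand. Strand use in the counting is not given in the sources used here, so that reads of these stretches cannot be assigned with certainty. Syn3 had 2 to 5 counts in the BMDM libraries and 44 to 118 in the 3T3 libraries, and Tmem198b 324 to 544 counts over all groups.

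The remaining MMP and TIMP genes of the mouse were a list of 17, of which 10 were tested in BMDM. One was higher and 1 lower, with a median log2 fold change of -0.05, where 3.38% of all genes were higher and 3.35% lower. Mmp8, known as the neutrophil collagenase, was at 131, 126 and 128 CPM in WT BMDM and at 80.3, 74.5 and 85.9 CPM in BMDM labelled PHD2cko, without overlap (-0.68, adjusted p = 7.9e-05, edgeR). The 10 neutrophil markers together reached only 0.605 to 1.30 CPM in WT and 0.997 to 1.16 CPM in BMDM labelled PHD2cko. Mmp27 was at 20.6, 21.3 and 23.1 CPM against 26.0, 30.5 and 28.0 CPM (0.38, adjusted p = 0.0119, edgeR).

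Of 23 genes for activators, surface partners and clearance of MMPs and for the plasminogen system, 16 were tested in BMDM, and 1 was higher and 3 lower (median log2 fold change -0.07). Over all genes 3.38% were higher and 3.35% lower. Thbs1 encodes thrombospondin-1, a matricellular protein that binds MMPs and promotes their clearance. It was at 25.6, 22.8 and 22.9 CPM in WT and at 9.47, 9.70 and 10.3 CPM in BMDM labelled PHD2cko, a fall without overlap (-1.27, adjusted p = 2.2e-05, edgeR). Plaur, the urokinase receptor, was at 33.6, 37.2 and 37.8 CPM against 24.0, 24.3 and 28.3 CPM (-0.50, adjusted p = 0.0165, edgeR). Furin, a proprotein convertase that activates MT1-MMP, had a log2 fold change of -0.18 (adjusted p = 0.0243, edgeR), and Bsg, the MMP inducer basigin, of 0.26 (adjusted p = 0.0424, edgeR).

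In 3T3 cells, medium from BMDM labelled PHD2cko went with higher Mmp9 and with modestly lower Mmp2, Mmp14 and Timp2. Mmp12 was higher as well, but not once the macrophage share described below was subtracted. Of the 9 tested genes 6 were called, 3 higher and 3 lower, where 15.7% of all genes were called (8.93% higher and 6.75% lower). With the macrophage share subtracted 4 were called, Mmp9 higher and the same 3 lower, while Mmp12 and Mmp13 lost their calls. The groups did not overlap for 6 of the 9, against 31.9% of all genes. Mmp13 is one of these 6 and of the 3 called higher, and it passed the filter only through its BMDM counts. A fit of the 6 3T3 libraries alone tested 8 genes, without Mmp13, and called 5. The median log2 fold change of the 9 was -0.03, beside -0.0046 over all genes.

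**Figure D3:**
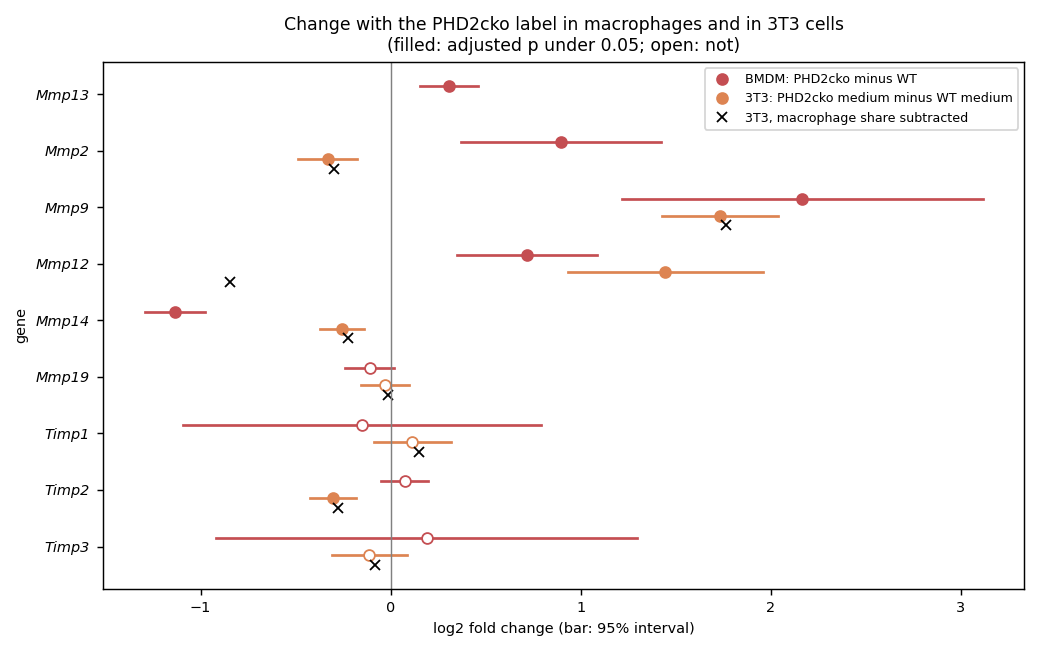
Log2 fold change with 95% interval (edgeR) for BMDM (libraries labelled PHD2cko minus WT) and 3T3 cells (PHD2cko medium minus WT medium); filled points had an adjusted p under 0.05, and crosses give the 3T3 value after the macrophage share was subtracted. Mmp14 is lower in both, more so in BMDM, Mmp9 is higher in both, and the cross of Mmp12 lies on the other side of 0; Mmp13 has no 3T3 value because its counts were too few, and Mmp3 was not tested.

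Macrophage markers moved with this comparison. Of the 23 markers 22 were called higher in PHD2cko medium, where 8.93% of all genes were. The sum of the 23 was 30.9 to 35.3 CPM in WT medium and 209 to 885 CPM in PHD2cko medium, with 1 marker at 0 in all WT medium libraries. Relative to BMDM this was 0.0702, 0.0786 and 0.0811% in WT medium and 2.35, 0.549 and 2.10% in PHD2cko medium (p = 0.1 in an exact two-sided permutation of the libraries, which is the lowest value available with groups of 3). After this share of the BMDM profile was subtracted, 12 of the 23 markers were called higher in PHD2cko medium. The values of the 10 genes in 3T3 cells are therefore set beside the counts that this share of the BMDM level would amount to. In bulk samples, fewer cells of a type and less RNA per cell cannot be told apart.

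Mmp9 rose in 3T3 cells from 8.80, 9.07 and 10.4 CPM in WT medium to 31.2, 24.8 and 37.5 CPM in PHD2cko medium. All 3 libraries in PHD2cko medium lay above all 3 in WT medium, with a log2 fold change of 1.73 (1.43 to 2.04, adjusted p = 2.6e-05, edgeR), about 3.32-fold. At the BMDM level of Mmp9, which was lower than that of 3T3 cells, the macrophage share amounted to at most 0.523 of the 429 to 774 Mmp9 counts in PHD2cko medium. Whether macrophage RNA in the 3T3 libraries had that level of Mmp9 was not tested. PHD2cko medium replicate 2, the lowest of its group in Mmp9, was also the lowest in macrophage share. With that share subtracted the log2 fold change was 1.77 (adjusted p = 2.1e-05, edgeR). In the counts as deposited it ranged from 1.57 to 1.87 when each 3T3 library was left out.

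Mmp12 was at 3.97, 6.86 and 5.13 CPM in WT medium and at 17.4, 8.79 and 17.8 CPM in PHD2cko medium. The groups did not overlap, with a log2 fold change of 1.45 (0.93 to 1.96, adjusted p = 0.00135, edgeR). PHD2cko medium replicate 2, the lowest of its group in Mmp12, was also the lowest in macrophage share. The share amounted to 324 of 339, 67.8 of 152 and 309 of 367 Mmp12 counts in PHD2cko medium. In WT medium it amounted to 6.15 of 78, 9.52 of 189 and 6.76 of 97 counts. With the share subtracted the log2 fold change was -0.84 (adjusted p = 0.141, edgeR), so that neither the direction nor the call was kept. The subtraction takes macrophage RNA in 3T3 libraries to have the BMDM profile, which was not tested. For Mmp13 the same share gave 13.5, 2.84 and 12.9 counts in PHD2cko medium, where 4, 2 and 2 were counted.

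**Figure D4:**
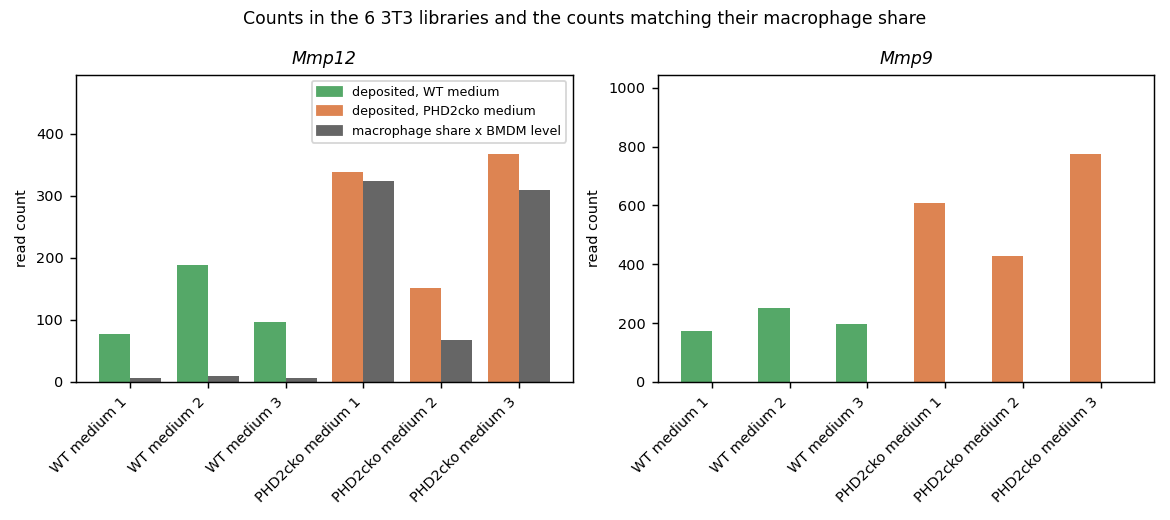
Deposited counts of Mmp12 and Mmp9 in the 6 3T3 libraries (coloured bars) beside the counts equal to each library's macrophage share times the BMDM level (grey bars). The grey bars reach 324 of 339 counts for Mmp12 in PHD2cko medium replicate 1 and are at most 0.523 counts for Mmp9.

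Mmp13 had 0, 1 and 0 counts in WT medium and 4, 2 and 2 in PHD2cko medium, mostly at or under the floor of 3 counts, and no fold change is given although it passed the threshold (adjusted p = 0.0472, edgeR). The macrophage share amounted to 13.5, 2.84 and 12.9 counts in PHD2cko medium, more than was counted. The call was lost with the DESeq2 Wald test (adjusted p = 0.0811), with no filter beyond 1 count (adjusted p = 0.0711, edgeR) and with the replicate block (adjusted p = 0.0518, edgeR). It was also lost with the share subtracted and in 5 of the 6 fits without 1 3T3 library, all but that without WT medium replicate 2. Against WT BMDM, with 1429 counts over the 3 libraries beside 1 in 3T3 cells in WT medium, the ratio was 1955 (95% counting interval 350.2 to 77260). This ratio rests on the 1 count of WT medium replicate 2, without which 3T3 cells in WT medium were at 0 counts.

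Mmp2, Mmp14 and Timp2 were each lower in 3T3 cells in PHD2cko medium. Mmp2 was at 942, 930 and 945 CPM in WT medium and at 751, 735 and 752 CPM in PHD2cko medium (log2 fold change -0.33, -0.49 to -0.17, adjusted p = 0.00846, edgeR). Mmp14 was at 475, 472 and 487 CPM against 392, 421 and 388 CPM (-0.26, -0.37 to -0.14, adjusted p = 0.00671, edgeR). Timp2 was at 1009, 1039 and 1043 CPM against 830.5, 881 and 794 CPM (-0.30, -0.42 to -0.18, adjusted p = 0.00306, edgeR). For none of the 3 did the groups overlap.

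These decreases were small, to 0.795-fold for Mmp2, 0.837-fold for Mmp14 and 0.811-fold for Timp2. Each was called without WT medium replicate 1, the library that stood apart, with log2 fold changes of -0.31, -0.24 and -0.30. Each was also called with the macrophage share subtracted (-0.30, -0.22 and -0.28). The macrophage share was at most 0.472 counts of Mmp2 and 3.75 of Mmp14. For Timp2, which BMDM also expressed, it amounted to 149 of 16162, 31.3 of 15226 and 142 of 16384 counts in PHD2cko medium and to at most 6.84 counts in WT medium.

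Timp1, Timp3 and Mmp19 were not called in 3T3 cells. Timp1 was at 58.3, 48.6 and 43.7 CPM in WT medium and at 52.6, 56.4 and 54.1 CPM in PHD2cko medium (log2 fold change 0.11, -0.09 to 0.32). The highest and the lowest values were both in WT medium, and without WT medium replicate 1 the difference was 0.25 (adjusted p = 0.0169, edgeR). Timp3 was at 535.5, 614 and 630 CPM against 534, 583 and 528 CPM (-0.11, -0.31 to 0.08), with overlap. Mmp19 was at 79.2, 74.2 and 77.3 CPM against 75.7, 78.5 and 71.7 CPM (-0.03, -0.16 to 0.10). The macrophage share in PHD2cko medium amounted to 24.2 of 1474, 5.06 of 1356 and 23.1 of 1481 counts of Mmp19 and to at most 0.206 counts of Timp1 and 0.134 of Timp3.

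Of the other MMP and TIMP genes 10 were tested in 3T3 cells, with 0 higher, also at an unadjusted p under 0.05, and 1 lower (edgeR). Over all genes 8.93% were called higher and 6.75% lower. Timp4 was rare, at 1.07, 1.02 and 0.634 CPM in WT medium and at 0.206, 0.289 and 0.145 CPM in PHD2cko medium (-2.09, adjusted p = 0.00698, edgeR), and DESeq2 called 0 of the list. With the macrophage share subtracted 2 of the list were lower, Timp4 (-2.05) and Mmp27 (-1.61, adjusted p = 0.00703, edgeR), a setting and a gene chosen after the values were seen. Mmp27 had 13, 22 and 13 counts in WT medium and 12, 8 and 15 in PHD2cko medium. As deposited it was not called, so that its call came only with the subtraction. Of the 16 tested activation and clearance genes 0 were higher and 3 lower (edgeR), beside the same shares over all genes. At an unadjusted p under 0.05, 2 were higher (edgeR), and 2 were called higher by DESeq2 and by limma-voom. Thbs1 fell from 1227, 1593 and 1627 CPM to 895, 929 and 926 CPM (-0.69, adjusted p = 3.6e-04, edgeR). Serpine2, protease nexin-1, fell from 112, 106 and 105 CPM to 73.3, 78.7 and 74.7 CPM (-0.51, adjusted p = 5.9e-05, edgeR).

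Of the 15 AP-1 and ETS genes 5 were higher and 0 lower in PHD2cko medium by edgeR, DESeq2 and limma-voom (median log2 fold change 0.10, 0 lower at an unadjusted p under 0.05). Over all genes 8.93% were called higher and 6.75% lower (edgeR). Fos was at 1.53, 0.943 and 1.11 CPM in WT medium and at 1.75, 2.14 and 2.42 CPM in PHD2cko medium (0.84, adjusted p = 0.011, edgeR). Junb was at 21.4, 17.5 and 17.1 CPM against 27.6, 24.0 and 31.7 CPM (0.58, adjusted p = 0.00166, edgeR), and Etv5 at 22.0, 20.5 and 23.1 CPM against 31.2, 27.2 and 30.7 CPM (0.45, adjusted p = 0.0137, edgeR). Atf3 was called (0.80, adjusted p = 0.0268, edgeR) although its groups overlapped. With the macrophage share subtracted, a setting chosen for this list after its values were seen, Fos (0.69), Junb (0.53) and Etv5 (0.47) were called, whereas Atf3 was at -0.58 (adjusted p = 0.115, edgeR).

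The effect of the label differed between the cell kinds for 3 of the 9 genes, where 12.3% of all genes were called in a test of that difference (1 higher and 2 lower in 3T3 cells relative to BMDM). Mmp14 was lower in both, by more in BMDM, and the log2 effect in 3T3 cells minus that in BMDM was 0.88 (0.68 to 1.08, adjusted p = 1.3e-04, edgeR). Mmp2 had opposite signs, at trace level in BMDM, with a difference of -1.23 (-1.77 to -0.68, adjusted p = 0.0065, edgeR). Timp2 was lower in 3T3 cells alone by its own test, and the difference was -0.38 (-0.55 to -0.20, adjusted p = 0.00765, edgeR). For Mmp9, higher in both, the difference was -0.43 with an interval of -1.48 to 0.61, which holds values of either sign. For Mmp12 the difference was 0.73 (adjusted p = 0.134, edgeR), -1.56 with the macrophage share subtracted (adjusted p = 0.0246, edgeR) and 0.98 without PHD2cko medium replicate 2 (adjusted p = 0.00187, edgeR). The value of -1.56 also takes macrophage RNA in 3T3 libraries to have the BMDM profile.

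Likeness of pattern was measured as the root mean square difference of centred log2 CPM over the 12 libraries, which fall into 2 cell kinds. The nearest genes to Mmp9 were Angptl4 (0.592) and C1qtnf1 (0.703). Those nearest to Mmp12 were Tspan13 (0.199) and Cd84 (0.271), to Mmp13 Slco2b1 (0.303) and Pltp (0.331), and to Mmp14 Slc7a5 (0.217) and the pseudogene Rpl19-ps12 (0.23). Mmp2 had Prrx1 (0.297) and Pcdh18 (0.306) as its nearest, Timp1 had Tead2 (0.215) and Clip4 (0.217), and Timp3 had Pcdh19 (0.336) and Obsl1 (0.341). The nearest genes to Mmp19 and Timp2 differed from them by less, Galnt1 (0.042) and Slc30a6 (0.0541) for Mmp19 and Fbxo7 (0.0521) and Zfp579 (0.0658) for Timp2.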

How the data were processed

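RNA of BMDM and 3T3 cells was sequenced by the authors (polyadenylated RNA, single-end reads). The authors deposited estimated counts per gene, made with kallisto on GRCm38 per the labels and the study's methods; the deposited values are whole numbers, without normalization. In R 4.3.3, edgeR 4.0.16 filterByExpr kept 14285 genes and left out 18259. The 12 libraries were scaled by TMM and fitted in 1 quasi-likelihood model with 4 groups. Two-sided p-values were adjusted over every tested gene (Benjamini-Hochberg), with a threshold of 0.05. CPM are counts over the effective library size. Pairs of libraries of a group all differed by more than sampling noise. The script was tested on simulated data. The macrophage share is the sum of 23 markers in a 3T3 library relative to BMDM of the same label, and was multiplied by the BMDM mean of each gene over total counts.

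The members and lists were chosen with earlier results of these data known. Named were all 10 members and, from each further list and comparison, at most 4 called genes with the largest log2 fold change, plus the 2 genes nearest in pattern to each tested member. The alternatives were DESeq2 1.42.0 (size factors or Wald test), limma 3.58.1 with voom, 2 other filters, the replicate block, fits of 6 libraries, the macrophage share subtracted and each library left out. Lengths came from GENCODE annotation of GRCm38 and start sequences from RefSeq (GRCm38.p6). No amino acid sequence was used. One called gene of the activation and clearance list and one allele shared by the mice are not reported here.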

Additional observations from a re-analysis of the deposited data

Results flagged for a closer look

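The 3 genes below were singled out because the effect of the PHD2cko label differed between 3T3 cells and BMDM in a direct test over all genes. For Mmp14 the log2 effect in 3T3 cells minus that in BMDM was 0.88, with a fall in both. For Mmp2 it was -1.23, between 7 to 27 counts per BMDM library and 12699 to 25629 counts per 3T3 library. For Timp2 it was -0.38. Single values far from their group were not sought gene by gene, since each group held 3 libraries. The causes of these differences were not tested.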

How the results depend on the processing

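The number of genes called in BMDM was 5 and fell to 3 with limma-voom and to 3 of 5 tested with at least 10 counts in every library compared, and leaving out 1 library each gave 1 to 3. Between cell kinds it was 8, and 4 of 4 tested with at least 10 counts in every library, a setting that tests fewer genes. It was 9 of 9 in the fit of the 6 libraries compared. In both of these settings Mmp19 gained the call (adjusted p of 0.0101 and 0.0448, edgeR). In 3T3 cells the number called was 6, with 4 to 6 under the alternatives, and for the difference between the effects 3, with 2 to 4. With the median length of coding transcripts 3 of 10 genes kept their rank in all 4 groups; without TMM all 10 did, although 21 of 40 group levels moved by more than 1 SD. Subtracting the macrophage share turned Mmp12 in 3T3 cells to -0.84 and its difference between cell kinds to -1.56 on the log2 scale, by the counts and under the assumption given above. Of 522 fold changes of single genes under alternatives, 474 kept direction and side of the threshold, 31 lost the call, 5 gained it and 12 changed sign. Beside the 2 of Mmp12, the other 10 were of genes called under neither setting. Subtracting the macrophage share took the Mmp13 difference between cell kinds to -0.31. Leaving out 1 library each gave -0.47 to 0.15 for Timp1 and -0.35 to 0.77 for Timp3 in BMDM, -0.0596 to 0.0128 for Mmp19 in 3T3 cells, and differences between cell kinds of -0.036 to 0.59 for Timp1 and -0.88 to 0.24 for Timp3; the cause was not tested. Same-numbered libraries correlated by -0.050 to 0.024, so the numbers share only a name; the replicate block left 4 of the 5 BMDM calls and 5 of the 6 3T3 calls. Trace counts of Mmp2, Mmp9, Timp1 and Timp3 in BMDM and of Mmp13 in 3T3 cells limit their precision.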

Other observations

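Of the 19 sheddases and ADAMTS proteinases, 18 were tested, and 0 were called in BMDM by edgeR and by limma-voom and 1 by DESeq2 (3 at an unadjusted p under 0.05 with edgeR). In 3T3 cells 5 were higher and 2 lower in PHD2cko medium, where 8.93% of all genes were higher and 6.75% lower. Adamts15 was at 7.07, 8.05 and 9.83 CPM in WT medium and at 10.7, 14.4 and 14.6 CPM in PHD2cko medium (log2 fold change 0.67, adjusted p = 0.0196, edgeR), and Adamts7 at 18.6, 18.4 and 20.8 CPM against 25.9, 27.7 and 27.5 CPM (0.49, adjusted p = 0.00152, edgeR). Adamts1, a proteoglycan-cleaving proteinase, was at 1256, 1366 and 1394 CPM against 995, 1097 and 928 CPM (-0.41, adjusted p = 0.00509, edgeR). In none of these 3 genes did the groups overlap, and each had under 1 CPM in BMDM. Adam8, a sheddase of leukocytes, was at 4.07, 4.43 and 6.24 CPM against 52.5, 14.8 and 48.5 CPM (3.00, adjusted p = 2.8e-04, edgeR). In BMDM Adam8 was at 329, 321 and 322 CPM in WT and at 538, 500.5 and 514 CPM in libraries labelled PHD2cko, without overlap. It was not called in BMDM, but the spread in this fit includes the 3T3 libraries, among which Adam8 varied more. The 3T3 libraries with the larger Adam8 values were those with the larger macrophage share. With that share subtracted, a setting chosen for this list after its values were seen, Adam8 was called at 2.81 (adjusted p = 4.7e-04, edgeR).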
